A study of Mus musculus with 2 samples.

Results

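Mast cells were recovered from the embryonic mouse coronal suture among the cells that the authors had left outside their table of osteogenic and mesenchymal clusters. A barcode was taken as a mast cell when it was absent from that table, held at least 1000 unique molecular identifiers (UMIs, each standing for 1 captured RNA molecule) from at least 1000 genes, had at most 7.5% mitochondrial, at most 3% Hbb and at most 3% Hba UMIs, and carried at least 10 UMIs of Cpa3 and Cma1 together. Cpa3 encodes mast cell carboxypeptidase A and Cma1 the chymase also called mMCP-5. Members were thus chosen by the UMIs of these genes, so their levels are no result, and the same cells supplied every other value below, so each comparison is a description with no test. The rule found 383 mast cells among 16977 kept cells, of which 348 came from the 8210 cells of the E15.5 library and 35 from the 8767 cells of the E17.5 library.

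The study profiled dissected coronal sutures of C57/BL6 wildtype embryos at E15.5 and E17.5 by droplet single-cell RNA sequencing of transcript 3′ ends, from strips with small amounts of frontal and parietal bone and without skin or brain. The E15.5 library pooled 10 sutures, dissociated for 45 min with 3 mg/mL collagenase II and dispase and depleted of dead cells with a removal kit. The E17.5 library joined 3 batches of 10, 3 and 3 sutures from 2 litters, dissociated for 30 min with 2 mg/mL collagenase IV and sorted by flow cytometry, and its barcodes carry suffixes 1 to 3 that the sources used here do not tie to a batch. With 1 library per stage, the stage, enzyme, sorting, embryos, sequencing centre, reads per cell and gene annotation differ together and cannot be told apart. No p-value was computed from cells. Levels are UMIs of a gene summed over a group of cells per 1000000 of all their UMIs (CPM), and intervals in parentheses are 95% intervals that cover counting error only. Since 1 tag was counted per molecule, each gene is compared with itself across cells and stages, and levels of different genes are not ranked. Where a pair of levels, shares or UMIs follows a gene with no stage named, the first is E15.5 and the second E17.5.

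Mast cells are tissue-resident leukocytes of the hematopoietic lineage that store proteases, histamine and heparin-like proteoglycans in secretory granules. They depend on the receptor tyrosine kinase Kit and its ligand stem cell factor (Kitl), and release their granules when IgE receptors or Mrgpr receptors are engaged. Connective tissue mast cells of the mouse are known for Mcpt4, Cma1, Cpa3 and tryptases, while mucosal mast cells are known for Mcpt1 and Mcpt2. Mast cells lie near vessels and in the meninges and can act on bone.

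Mast cells made up 4.24% (3.81 to 4.70) of the kept E15.5 cells and 0.399% (0.278 to 0.555) of the kept E17.5 cells. The 3 E17.5 suffixes held 4 of 1530, 15 of 3602 and 16 of 3635 cells, so the low share was found in each. The summed Cpa3 and Cma1 UMIs ranged from 15 to 713 per mast cell with a median of 210 at E15.5, and from 52 to 1292 with a median of 408 in E17.5 cells. The members just inside the limit held 15, 15, 25, 27 and 29 UMIs at E15.5 and 52, 81, 121, 184 and 202 in E17.5 cells, and the unlabelled cells just outside held 6, 5, 5, 5 and 5, and 6, 4, 4, 4 and 4. An empty stretch therefore separated members from other unlabelled cells in both libraries. UMIs of these genes also occurred outside mast cells, as free RNA gives in droplet data, in that 41.5% of labelled E15.5 cells and 22.0% of labelled E17.5 cells (those with a mesenchymal label of the authors) held at least 1 UMI of either gene. At E15.5, 13 barcodes with a sum of at least 10 carried such a label (sums of 14 to 211) and stayed among the other cells, and 204 more fell outside the limits on cells, mainly 153 with under 1000 genes.

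**Figure D1:**
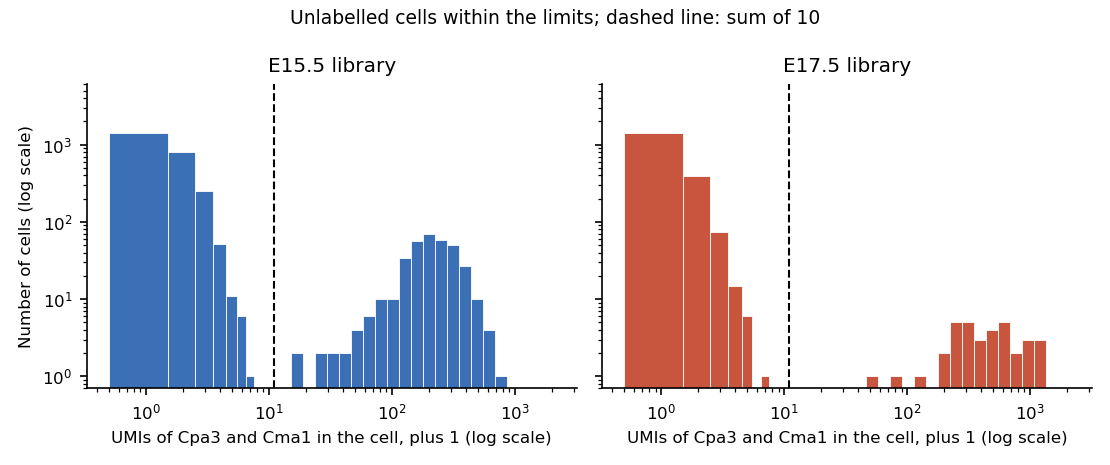
Number of unlabelled kept cells (y axis, log scale) by summed UMIs of Cpa3 and Cma1 per cell on the x axis, plotted as the sum plus 1 on a log scale, with 1 panel per library and a dashed line at the limit of 10. The 348 E15.5 cells and 35 E17.5 cells to the right of the line are the mast cells, and the cells to its left hold at most 6 UMIs.

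Mast cells held fewer UMIs than their neighbours, with medians of 4793.5 UMIs and 1679.5 genes at E15.5 against 8880 UMIs in other kept cells, and 6377 UMIs and 2104 genes in E17.5 cells against 12017.5 UMIs. Their median mitochondrial share was 3.22% and 3.02%, against 1.73% and 2.32% in other cells. All mast cells together gave 2214687 UMIs at E15.5 and 251131 in E17.5 cells, so 3 UMIs, the floor used here, are worth 1.35 CPM and 11.9 CPM, and low genes are read less firmly at E17.5. Doublet scores were at or above the 94th percentile in 32 E15.5 mast cells (9.20%) and 9 E17.5 mast cells (25.7%). No mast cell barcode was shared between the libraries.

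The markers that the rule did not use fitted the label, apart from the IgE-binding chain. Kit had at least 1 UMI in 285 of 348 E15.5 mast cells (81.9%) and 28 of 35 E17.5 mast cells (80%), or 71.6% and 48.6% after thinning each cell to 3000 UMIs (292 and 35 cells), against 1.07% and 0.659% of labelled mesenchymal cells, which were deeper (medians of 8510 and 12301.5 UMIs). The IL-33 receptor gene Il1rl1 was found in 87.6% and 80% of mast cells against 0.862% and 0.835%, the transcription factor Gata2 in 83.6% and 94.3% against 1.12% and 0.307%, and Cyp11a1, a steroidogenic enzyme, in 91.7% and 91.4% against 1.42% and 0.351%. Hdc, which makes histamine, was found in every mast cell of both libraries, and the tryptase Tpsb2 in 331 of 348 and 35 of 35. Fcer1a, the IgE-binding chain of the IgE receptor, had 3 UMIs among 2214687 in E15.5 cells and 0 among 251131 in E17.5 cells, where the floor of 3 UMIs is worth 11.9 CPM. At E15.5, 2 of these 3 UMIs were in 1 cell, 1 of the 4 cells rich in Mcpt8 that are given with the single cells.

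Lists of mast cell genes by role described these cells, with the levels in all other kept cells of the same library as the comparison. A gene was counted when at least 10 UMIs were seen in mast cells or expected from the other cells, and a level was called higher or lower from 2-fold on. Of 175 counted genes of the lists 90 were at least 2-fold higher in E15.5 mast cells and 34 at least 2-fold lower, beside 10.1% and 26.3% of all 10811 genes counted there. At E17.5, 72 of 99 were higher and 10 lower, beside 16.2% and 22.6% of 4082 genes. Thinning to 3000 UMIs left 40 higher, but the minimum of 10 UMIs was applied anew there, so 40 is not out of these 99. The median fold over the lists was 2.32 and 9.99, against 0.869 and 0.882 over all genes. These lists were put together from known mast cell genes, so their high counts describe the cells and are no evidence for the label.

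Granule proteases set mast cells apart in both libraries, with 10 of 10 counted genes higher at E15.5 and 6 of 6 in E17.5 cells. Tpsb2 stood at 6029 CPM at E15.5, where single cells ranged from 0 to 261 UMIs with a median of 34.5, and at 28252 CPM at E17.5, where they ranged from 9 to 676 with a median of 148. Other kept cells held 9.62 and 8.08 CPM of Tpsb2. Without the 13 labelled barcodes rich in Cpa3 and Cma1, the E15.5 fold of Tpsb2 over other cells was 977 in place of 627. A second tryptase gene, Tpsab1, stood at 762 and 514 CPM and the membrane tryptase gene Tpsg1 at 314 and 227 CPM. Prss34, a tryptase-like protease also found in basophils, was at 394 CPM in 39.1% of E15.5 mast cells and at 147 CPM in 17.1% of E17.5 mast cells (33.6% and 14.3% after thinning, against 0.656% and 0.117% of labelled cells). Granule proteases without Cpa3 and Cma1 took 0.809% of mast cell UMIs at E15.5 and 3.27% in E17.5 cells.

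The chymase family divided between the stages. Mcpt4, a chymase of connective tissue mast cells, was at 51.0 CPM at E15.5 and 3432.5 CPM in E17.5 cells, a ratio of 67.3 (55.2 to 82.6), and at 0.181 and 1.36 CPM in the other cells. Mcpt4 UMIs were found in 29 of 348 cells (8.33%) and 11 of 35 cells (31.4%), and after thinning in 6.16% and 25.7%, against 0.187% and 2.01% of labelled cells. Mcpt4 was unevenly spread at E17.5, where 5 cells held 84.9% of its UMIs and 1 cell alone held 323. The ratio was 40.2 after thinning and 32.3 as the mean of the CPM of each cell, and the 204 E15.5 barcodes outside the limits on cells held 160 CPM of Mcpt4. In contrast, Mcpt2 of the mucosal type was at 263 CPM at E15.5 and 11.9 CPM in E17.5 cells, a ratio of 0.0454 (0.00933 to 0.133). It too was unevenly spread, in 15.2% of E15.5 cells (13.7% after thinning), where 1 cell alone held 63 UMIs. At E17.5 it had 2 UMIs in 1 cell and 1 UMI in another. Mcpt1, the other mucosal chymase, had 2 and 0 UMIs. Gzmb was at 73.1 and 15.9 CPM and Ctsg, encoding cathepsin G, at 68.2 and 19.9 CPM. Gzmb was also unevenly spread at E15.5, where the cells richest in it had no Tpsb2 UMI. The chymase gene Cma2 was at 30.3 and 67.7 CPM, but 28.2% of the stretches of 90 bases in its transcript also occur in Mcpt4 or Mcpt9, so its reads may be divided between these genes, whereas 1.08% of those of Mcpt4 are shared.

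Mcpt4 lies on chromosome 14 of the mouse genome, and the stretch around its start is shown because Mcpt4 showed the largest ratio between the stages among genes with at least 20 UMIs in each library. The sequence runs from 250 bases before to 50 bases after the start (RefSeq, GRCm38.p6, chr14:56062261-56062560, minus strand), with capitals marking TGATAA, a form of the motif that GATA factors are known to bind.
Mcpt4: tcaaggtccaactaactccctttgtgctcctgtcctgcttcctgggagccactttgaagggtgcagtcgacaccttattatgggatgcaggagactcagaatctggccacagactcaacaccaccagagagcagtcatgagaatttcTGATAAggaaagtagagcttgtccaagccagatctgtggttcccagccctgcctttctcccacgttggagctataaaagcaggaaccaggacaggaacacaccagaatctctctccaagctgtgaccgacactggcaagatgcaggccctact
The motifs AGATAA and TGATAA were searched on both strands, and Mcpt4 had 1 match, 103 bases before the start. Of 220 genes in the mast cell lists 172 had such a sequence. Either motif was held in at least 1 sequence by 27.9% of these genes, beside 21.0% of all 27025 genes with a sequence.

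Histamine and serotonin genes were also higher in mast cells than in other cells, in 7 of 8 counted genes at E15.5 and 6 of 6 in E17.5 cells. Hdc was at 2979.7 CPM (1 to 87 UMIs per cell, median 16) at E15.5 and 9246 CPM (3 to 177 UMIs per cell, median 59) in E17.5 cells, a ratio of 3.103 (2.958 to 3.254), and at 8.01 and 2.88 CPM in other cells. The vesicular monoamine transporter gene Slc18a2, which loads granules, stood at 119 and 115 CPM. Slc6a4, the serotonin transporter, was at 83.1 and 279 CPM and Tph1, which makes serotonin, at 122 and 354 CPM. In the other E17.5 cells Tph1 was at 22.7 CPM, so its fold of 15.6 there is below that of 249 at E15.5. Maob, which breaks down amines, was at 356 CPM and 155 CPM and lower at E17.5, with a ratio of 0.436 (0.308 to 0.601). Maoa was the counted gene below the other cells at E15.5, at 13.5 against 20.7 CPM. Hnmt, which inactivates histamine, had no UMI in any mast cell.

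The granule proteoglycan list included genes of the core protein, sulfation enzymes and general linker enzymes. Srgn, encoding the core protein serglycin, was at 1533 CPM at E15.5 and 3851 CPM in E17.5 cells, against 23.0 and 15.6 CPM in other cells. Of the sulfotransferase genes, Ndst2, the heparin N-sulfation enzyme of mast cells, was at 97.1 and 191 CPM against 6.01 and 8.85, and Hs3st1 at 313 and 486 against 23.2 and 16.4. Hs6st2 was at 133 and 155 against 34.3 and 15.99, and Hs2st1 at 65.0 and 87.6 against 18.7 and 22.9. Ndst1 and Hs6st1, of the same list, had few UMIs at E15.5, with 14 and 7 in the cells with at least 3 UMIs of mitosis genes and 6 and 1 in the rest. The linker and chain genes Xylt2 (4.52 CPM), B3galt6 (7.68 CPM) and Ext2 (58.2 CPM) lay below the other cells at E15.5, which held 19.44, 15.52 and 96.10 CPM. Thus 6 of 16 counted genes were higher and 2 lower at E15.5, and 7 of 10 higher and 0 lower in E17.5 cells.

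**Figure D2:**
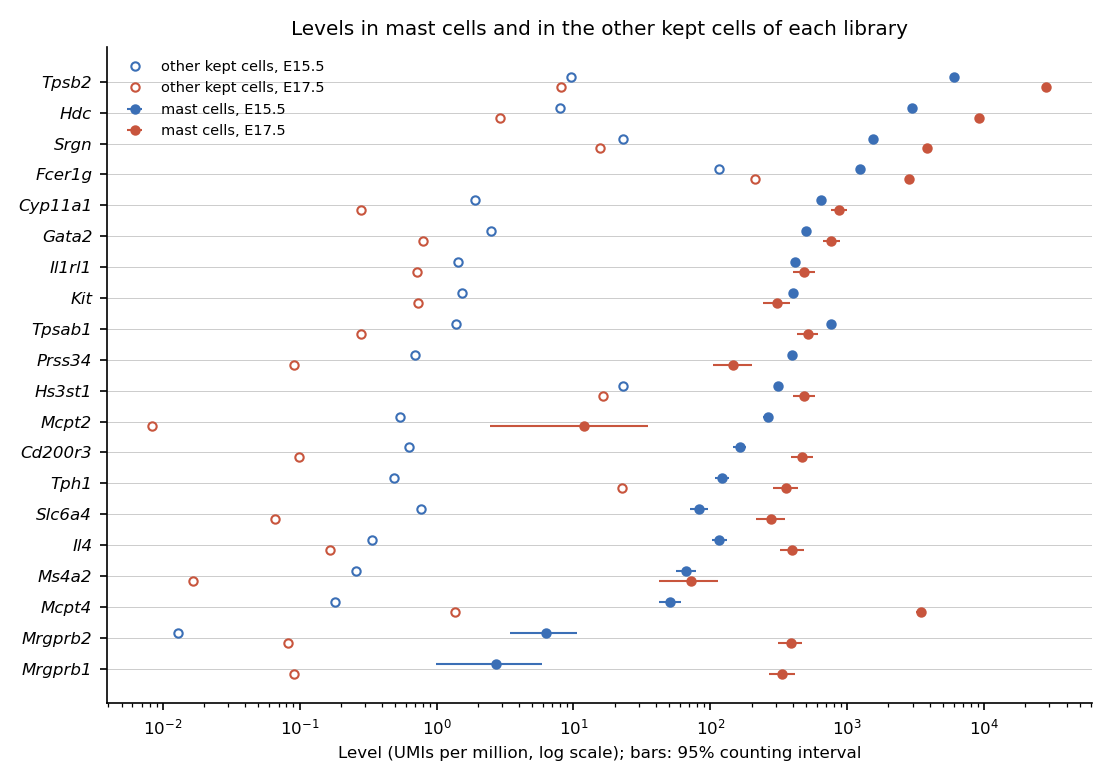
CPM (log x axis) of 20 genes (rows) in mast cells (filled circles with 95% Poisson intervals) and in other kept cells (open circles), with E15.5 in blue and E17.5 in red and levels of 0 not drawn. Tpsb2 in mast cells lies at 6029 CPM at E15.5 and 28252 CPM in E17.5 cells, above its open circles at 9.62 and 8.08 CPM.

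The IgE receptor was present in part. Of its chains, Ms4a2 (the beta chain) was at 66.8 CPM in 31.9% of E15.5 mast cells and 71.7 CPM in 31.4% of E17.5 mast cells, and at 0.258 and 0.0166 CPM in other cells. The gamma chain Fcer1g, which other Fc receptors share, was at 1243 and 2847 CPM, while macrophages of the same libraries (340 and 580 unlabelled cells with at least 10 UMIs of C1qa, C1qb and C1qc) held 1514 and 2941 CPM. With Fcer1a at 3 and 0 UMIs, the ligand-binding chain was not detectable beyond the floor. The starts of Ms4a2 and Fcer1a are shown because Ms4a2 was found in mast cells of both libraries and Fcer1a was at or under the floor of 3 UMIs. They hold 3 matches (224, 37 and 11 bases before the start) and 1 match (92 bases before it) to AGATAA or its reverse complement, in capitals, and lie on the minus strand of GRCm38.p6 at chr19:11623670-11623969 and chr1:173227180-173227479.
Ms4a2: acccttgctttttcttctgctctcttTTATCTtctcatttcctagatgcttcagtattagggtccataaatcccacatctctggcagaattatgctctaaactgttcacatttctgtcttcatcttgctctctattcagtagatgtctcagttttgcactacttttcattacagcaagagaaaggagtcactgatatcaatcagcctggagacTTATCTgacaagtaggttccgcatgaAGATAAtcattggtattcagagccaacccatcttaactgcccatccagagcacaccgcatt
Fcer1a: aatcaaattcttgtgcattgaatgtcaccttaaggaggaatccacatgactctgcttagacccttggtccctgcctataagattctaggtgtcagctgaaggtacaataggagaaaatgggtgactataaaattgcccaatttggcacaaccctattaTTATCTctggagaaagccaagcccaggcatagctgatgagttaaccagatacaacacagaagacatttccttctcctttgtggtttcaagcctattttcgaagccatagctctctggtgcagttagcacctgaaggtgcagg
Matches to these letters are a description and say nothing of binding in these cells.

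The list of Fc receptors and their signalling genes was higher in mast cells in 14 of 18 counted genes at E15.5 and 11 of 12 in E17.5 cells, and none was 2-fold lower. The adaptor genes Lat2 and Lat stood at 219 and 63.7 CPM in E15.5 cells and 693 and 104 CPM in E17.5 cells, against 4.10 and 1.55, and 2.33 and 0.762 CPM in other cells. The kinase gene Btk was at 42.4 and 39.8 CPM and the phosphatase gene Inpp5d, which restrains mast cell activation, at 56.0 and 115 CPM. Rgs13, a regulator of G protein signalling, was at 131 and 191 CPM against 0.219 and 0.0580 CPM. Between the stages, 8 of 12 counted genes of this list had an interval above 1 and none below 1, beside 19.3% above and 20.3% below among all 3644 genes counted between the stages. Fcgr3, a low-affinity IgG receptor, was among them at 287 and 510 CPM.

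Receptors for growth factors and cytokines included Kit at 401 CPM (0 to 14 UMIs per cell) at E15.5 and 307 CPM (0 to 10 UMIs per cell) in E17.5 cells, against 1.53 and 0.729 CPM in other cells. Il1rl1 was at 417 and 486 CPM and the common beta chain Csf2rb, used by the IL-3, IL-5 and GM-CSF receptors, at 261 and 235 CPM. Il1rap, the coreceptor of Il1rl1, had 2 and 0 UMIs, fewer than other cells at E15.5 (0.903 against 3.75 CPM). Il3ra (25.7 and 79.6 CPM) and the TSLP receptor gene Crlf2 (26.2 and 71.7 CPM) were higher at E17.5, with ratios of 3.09 (1.76 to 5.23) and 2.74 (1.52 to 4.71). In all, 5 of 13 counted genes were higher and 2 lower at E15.5, and 6 of 8 higher and 1 lower in E17.5 cells.

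Of the Mrgpr receptors, Mrgprb1 and Mrgprb2 were higher at E17.5, while Mrgprb3, Mrgprb8 and Mrgprx1 had 0 UMIs in mast cells of both libraries. Mrgprb2, the receptor through which cationic drugs and neuropeptides are known to release mast cell granules, had 14 UMIs in 6 of 348 E15.5 cells (6.32 CPM) and 97 UMIs in 22 of 35 E17.5 cells (386 CPM), a ratio of 61.1 (34.7 to 116). Its relative Mrgprb1 had 6 UMIs in 3 cells (2.71 CPM) and 84 UMIs in 13 cells (334 CPM), a ratio of 123 (54.4 to 346). Among cells thinned to 3000 UMIs, Mrgprb2 was found in 1.37% and 51.4% and Mrgprb1 in 0.685% and 37.1%, against at most 0.146% of labelled cells of either library. The suffixes 1, 2 and 3 of E17.5 held 2 of 4, 12 of 15 and 8 of 16 cells with Mrgprb2. Their starts, at chr7:48558037-48558336 and chr7:48456293-48456592 on the minus strand of GRCm38.p6, are shown because both genes were scarce at E15.5 and present in E17.5 cells, with the reverse complement of TGATAA in capitals.
Mrgprb2: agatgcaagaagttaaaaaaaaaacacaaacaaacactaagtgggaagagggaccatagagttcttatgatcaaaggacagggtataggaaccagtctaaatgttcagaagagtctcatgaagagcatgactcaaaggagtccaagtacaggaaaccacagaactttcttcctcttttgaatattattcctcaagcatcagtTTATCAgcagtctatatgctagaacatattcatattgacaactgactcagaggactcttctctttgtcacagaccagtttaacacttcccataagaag
Mrgprb1: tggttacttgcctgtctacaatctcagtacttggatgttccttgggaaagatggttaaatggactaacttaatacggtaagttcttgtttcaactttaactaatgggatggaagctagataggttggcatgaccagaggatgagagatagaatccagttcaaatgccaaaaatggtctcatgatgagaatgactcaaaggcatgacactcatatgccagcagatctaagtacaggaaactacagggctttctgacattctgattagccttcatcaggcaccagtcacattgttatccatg
Mrgprb2 has 1 match, 48 bases before the start, and Mrgprb1 has none. Among the other receptors, the adenosine receptor gene Adora3 was at 216 and 330.5 CPM and the ATP-gated channel gene P2rx1 at 51.5 and 63.7 CPM, both above other cells, which held at most 0.529 CPM of either. C3ar1, C5ar1, Tlr2, Tlr4 and Ptger4 were each below 6 CPM in mast cells and below the other cells. At E15.5 5 of 13 counted genes of this list were higher and 6 lower, and at E17.5 5 of 5 were higher.

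**Figure D3:**
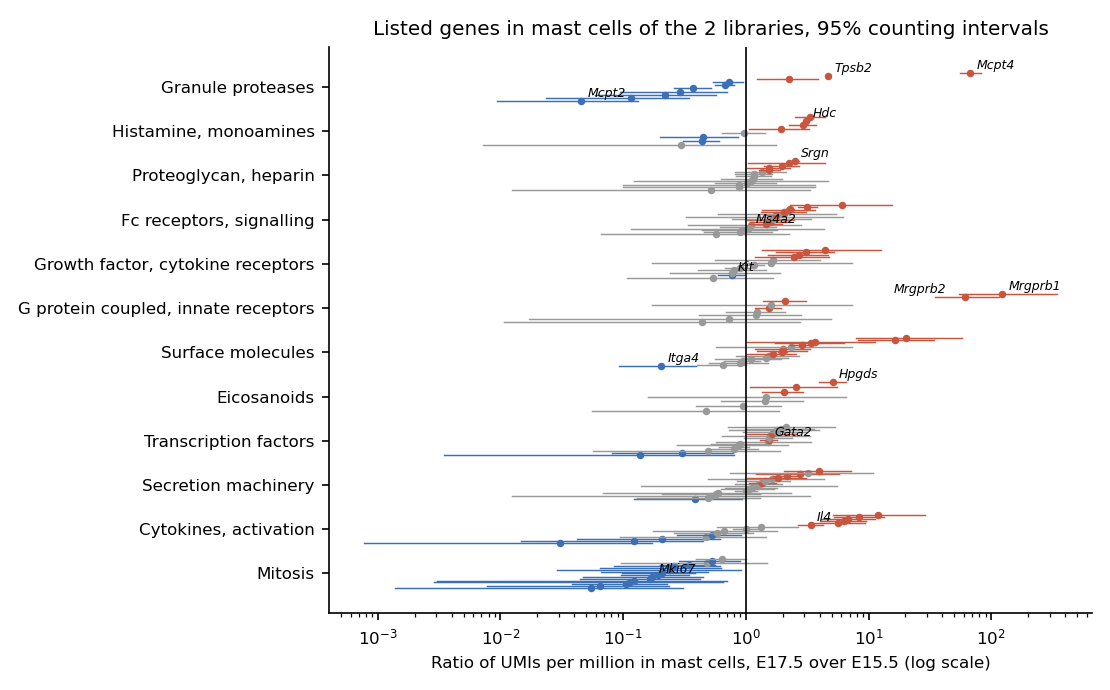
Ratio of CPM in E17.5 over E15.5 mast cells (log x axis) with 95% intervals, by list (rows), for genes with at least 10 UMIs in 1 library and at least 1 in each; red intervals lie above 1, blue below 1 and grey include 1. Mrgprb1 at 123, Mcpt4 at 67.3 and Mrgprb2 at 61.1 lie above 1, and Mcpt2 at 0.0454 below 1.

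Surface molecules were higher in 10 and lower in 5 of 20 counted genes at E15.5, and higher in 9 and lower in 1 of 14 in E17.5 cells. Cd200r3, an activating receptor of mast cells and basophils, was at 163 and 466 CPM against 0.632 and 0.0994 CPM. The inhibitory receptor genes Cd33 and Lilrb4a were at 3.16 and 6.32 CPM in E15.5 cells and 63.7 and 104 CPM in E17.5 cells, with ratios of 20.2 (7.85 to 57.9) and 16.4 (8.24 to 33.9). The integrin gene Itga4, used in homing to tissue, went the other way at 175 and 35.8 CPM, a ratio of 0.205 (0.0928 to 0.392), while its partner Itgb7 was at 47.9 and 95.6 CPM. Ccr2, a chemokine receptor of circulating leukocytes, had 66 UMIs at E15.5 (29.8 CPM) and 0 in E17.5 cells. Cd63, a granule membrane protein, was at 1317 CPM in E15.5 mast cells against 1234 CPM in other cells, and at 2612 against 1409 CPM at E17.5, with neither fold reaching 2.

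Genes for lipid mediators were few. Hpgds, which makes prostaglandin D2, was at 74.95 CPM at E15.5 and 382 CPM in E17.5 cells, a ratio of 5.10 (3.92 to 6.60), against 16.6 and 16.5 CPM in other cells, though macrophages exceeded mast cells at E15.5 (a fold of 0.344 for mast cells over macrophages). Alox5 and Alox5ap, which start leukotriene synthesis, stood at 24.8 and 68.6 CPM in E15.5 cells and 35.8 and 139 CPM in E17.5 cells. Ltc4s, the next enzyme toward cysteinyl leukotrienes, was at 3.16 CPM in mast cells and 3.31 CPM in other cells at E15.5. In this list 3 of 9 counted genes were higher and 3 lower at E15.5, and 2 of 2 higher in E17.5 cells.

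The transcription factor list gave 12 of 19 genes higher and 2 lower at E15.5, and 7 of 8 higher and 0 lower in E17.5 cells. Gata2 was at 499 CPM (0 to 20 UMIs per cell) and 765 CPM (0 to 18 UMIs per cell), against 2.49 and 0.795 CPM in other cells. Gata1 was at 33.4 and 59.7 CPM, Mitf, a factor of mast cells and melanocytes, at 64.1 and 99.5 CPM, Tal1 at 17.6 and 31.9 CPM and Myb at 84.9 and 75.7 CPM. Melanocyte markers gave 2.71 CPM in sum at E15.5, with 4 of 7 at 0. Of 9 factors counted between the stages, 2 had an interval above 1 (Gata2 at 1.53 and Spi1 at 1.64) and 1 below 1 (Runx1 at 0.301). Among all 3644 genes counted between the stages, 19.3% lay above 1 and 20.3% below, so these counts do not set the factors apart. Hes1, a repressor downstream of Notch that was named for its ratio and not listed, was at 107 CPM in 32.8% of E15.5 cells and 1871.5 CPM in 80% of E17.5 cells (22.6% and 74.3% after thinning, against 55.6% and 62.4% of labelled cells), a ratio of 17.49 (14.93 to 20.53). In the other cells Hes1 stood at 130 and 132 CPM, and the suffixes 1, 2 and 3 gave 865, 1618 and 2219 CPM in 4, 15 and 16 mast cells.

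Granule secretion genes were less particular to mast cells, with 8 of 19 counted genes higher and 1 lower at E15.5, and 4 of 10 higher and 0 lower in E17.5 cells. Rab27b, a GTPase that docks granules, was at 439 and 442 CPM against 4.05 and 9.27 CPM in other cells. Stx3 was at 58.7 and 83.6 CPM, Stxbp2 at 74.95 and 79.6 CPM and Unc13d at 32.5 and 15.9 CPM, and each was above other cells. Vamp8, the vesicle protein of regulated secretion, was at 219 CPM in mast cells and 157 CPM in other cells at E15.5.

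Cytokine genes included Il4 at 116 CPM in 46.6% of E15.5 cells and 394 CPM in 85.7% of E17.5 cells (27.1% and 62.9% after thinning, against 0.206% and 0.161% of labelled cells). Elsewhere Il4 was at 0.335 and 0.166 CPM. Il13, of the same cluster of type 2 cytokine genes, was at 98.4 and 51.8 CPM. Tnf was at 24.8 and 155 CPM, a ratio of 6.25 (4.04 to 9.60), and Osm at 18.1 and 123 CPM, a ratio of 6.83 (4.13 to 11.2). The chemokine genes Ccl1, Ccl3 and Ccl4 were at 57.8, 65.0 and 130 CPM at E15.5 and had 3, 2 and 1 UMIs in E17.5 cells, whereas Ccl2 and Ccl7 were at 4.97 and 17.6 CPM in E15.5 cells and 59.7 and 147 CPM in E17.5 cells. These levels rested on few cells. At E15.5, 4 cells rich in Mcpt8 held 49.3% of the Ccl3 and 58.0% of the Ccl4 UMIs. At E17.5, 3 cells held 14 Ccl2 UMIs and 3 cells held 33 Ccl7 UMIs, with 1 and 4 UMIs in the remaining mast cells. Nr4a1, an early gene of activated cells that dissociation also induces, was at 318 and 319 CPM in mast cells and 259 and 39.5 CPM in other cells. In this list 8 of 17 counted genes were higher and 3 lower at E15.5, and 7 of 9 higher and 1 lower in E17.5 cells.

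Factors that act on bone and vessels were mostly below the other cells, with 10 of 12 counted genes lower at E15.5 and 7 of 8 in E17.5 cells. Tgfb1 was the gene above them, at 121 CPM against 23.5 CPM and 219 CPM against 74.3 CPM. Igf1 was at 64.6 against 337 CPM at E15.5, Vegfa at 6.77 against 21.4 CPM and Timp1 at 26.2 against 151 CPM. Tnfsf11, the osteoclast factor RANKL, had 1 UMI at E15.5 and 0 in E17.5 cells.

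Ligands for mast cell receptors were looked for in the surrounding cells. Kitl was at 62.9 CPM in the other E15.5 cells and 5.03 CPM in the other E17.5 cells. By the authors' clusters, where EC stands for ectocranial, OG and PO for osteogenic and MG for meningeal clusters, Kitl was highest at E15.5 in EC3 at 171 CPM (163 to 179), PO2 at 124 CPM (94.6 to 160), EC1 at 116 CPM and OG2 at 105 CPM. At E17.5 it was highest in EC3 at 38.6 CPM (30.4 to 48.3), MG3 at 20.1 CPM and EC2 at 18.996 CPM, and stood at 0.631 CPM in OG2 and 0.617 CPM in PO2. Mast cells themselves held 16.7 CPM and 0 UMIs. Il33, the ligand of Il1rl1, lay mainly in the meningeal clusters, at 38.2, 30.3, 37.6 and 9.03 CPM in MG1 to MG4 at E15.5 and 38.3, 37.2, 44.1 and 45.8 CPM in E17.5 cells, against at most 5.37 CPM in any other cluster at E15.5 and 20.8 CPM in E17.5 cells. Mast cells had no Il33 UMI.

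Over all lists, 34 of 107 genes counted between the stages were at least 2-fold higher at E17.5 and 15 at least 2-fold lower, beside 12% and 12.4% of all 3644 genes counted. The median ratio was 1.53, against 0.970 over all genes, and 53 intervals lay above 1 and 19 below 1, beside 19.3% and 20.3% of all genes counted. After thinning to 3000 UMIs, 20 genes were 2-fold higher and 4 lower, and with E17.5 suffix 2 or 3 alone 6 and 8 were lower. The minimum of 10 UMIs was applied anew in each of these settings, so their counts are not out of the same 107 genes. For the protease list alone, 3 of 10 were higher (Mcpt4, Tpsb2 and Cma2) and 5 lower (Mcpt2, Mcpt8, Gzmb, Ctsg and Prss34), with a median ratio of 0.524, although the summed level was 8090.1 CPM at E15.5 and 32700.1 CPM in E17.5 cells. Of the lower genes, Mcpt8 had 76.9% of its E15.5 UMIs in 4 cells that go against the mast cell label. Gzmb was found in 8.91% of E15.5 cells, and its 162 UMIs there were unevenly spread. The cells richest in Gzmb held 27, 25, 16, 15 and 14 of them, and none of these cells had a Tpsb2 UMI. The 4 cells rich in Mcpt8, also without Tpsb2, held 11.1% of the Gzmb UMIs.

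Other RNA moved with these stage differences. Genes induced by dissociation summed to 4063 CPM in E15.5 mast cells and 14001 CPM in E17.5 mast cells, and in the other cells to 6677 and 3532.5 CPM. Fos was at 461 and 1951 CPM, Jun at 405 and 2289.6 CPM, and Ier2 at 360 and 2469 CPM. Mesenchymal markers, 12 of 12 detected in each library, summed to 4142 and 8545 CPM in mast cells and 24232 and 32576 CPM in other cells, and at least 10 such UMIs were found in 27.0% of E15.5 and 94.3% of E17.5 mast cells. Macrophage markers summed to 172 and 649 CPM with 13 and 12 of 13 detected, and erythroid markers to 9664 and 657 CPM beside 10571 and 552 CPM in other cells. Chondrocyte markers, 6 of 6 detected in each library and each at least 2-fold lower at E17.5, summed to 1421 and 75.7 CPM in mast cells and 4013 and 600.1 CPM in other cells. Megakaryocyte and platelet markers summed to 27.1 and 199 CPM in mast cells, with 4 and 5 of 9 at 0, and to 187 and 414 CPM in other cells. Pf4, which is in both the macrophage and the platelet list, was at 13.5 and 171 CPM in mast cells. At E17.5 a single cell held up to 97 macrophage and 32 platelet marker UMIs, and 1 cell reached 10 UMIs in each list. The part of all these RNAs in the differences between the stages was not tested.

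Cell cycle genes were lower in mast cells at E17.5. Mast cells with at least 3 UMIs of 18 mitosis genes numbered 160 of 348 at E15.5 (46.0%, 40.7 to 51.4) and 7 of 35 in E17.5 cells (20%, 8.44 to 36.9), beside 34.5% and 52.5% of other cells. After thinning to 3000 UMIs the shares were 40.1% of 292 cells and 2.86% of 35 cells. The list summed to 1954 CPM in E15.5 mast cells and 442 CPM in E17.5 mast cells, and to 1267 and 1417 CPM in other cells. Top2a, a topoisomerase of dividing cells, was at 228 and 23.9 CPM, Mki67 at 92.1 and 15.9 CPM, and Cenpf at 125 CPM and 0 UMIs. Of 14 mitosis genes counted between the stages, 13 had an interval below 1, beside 20.3% of all genes counted. Replication genes had 6 of 11 intervals below 1, such as Mcm3 at 95.3 and 23.9 CPM, while Mcm2 stood at 37.5 and 39.8 CPM. Over all lists, other cell types and cell cycle included, 19 of 183 genes counted in both libraries lay above the other cells of 1 library and below those of the other, with both intervals clear of 1, beside 5.08% of all 3973 genes counted in both.

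Within the E15.5 library, mast cells with mitosis genes had lower levels of several granule genes, Tpsg1 excepted. The 160 cells with at least 3 mitosis UMIs were deeper, with a median of 6486 UMIs against 3847 in the other 188 cells. Mcpt4 was at 16.6 CPM in them and 102 CPM in the rest, a ratio of 0.162 (0.0969 to 0.260). The shares of cells with Mcpt4 were closer, at 7.5% and 9.04%. Its 113 UMIs were unevenly spread over the E15.5 mast cells, with 19, 14 and 10 in the cells that held most. Ctsg was at 28.7 and 127 CPM, Alox5ap at 29.4 and 127 CPM, Tpsb2 at 4255 and 8675 CPM and Prss34 at 281 and 561 CPM. Hdc had a ratio of 0.688 (0.656 to 0.723) and Il1rl1 of 0.697 (0.612 to 0.795). In contrast, Kit was at 388 and 420 CPM, a ratio of 0.926 (0.809 to 1.06), Gata2 at 505 and 489 CPM, a ratio of 1.03 (0.914 to 1.17), and Tpsg1 at 379 and 218 CPM, a ratio of 1.74 (1.47 to 2.06). Cpe, encoding carboxypeptidase E, was at 73.9 and 19.1 CPM.

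**Figure D4:**
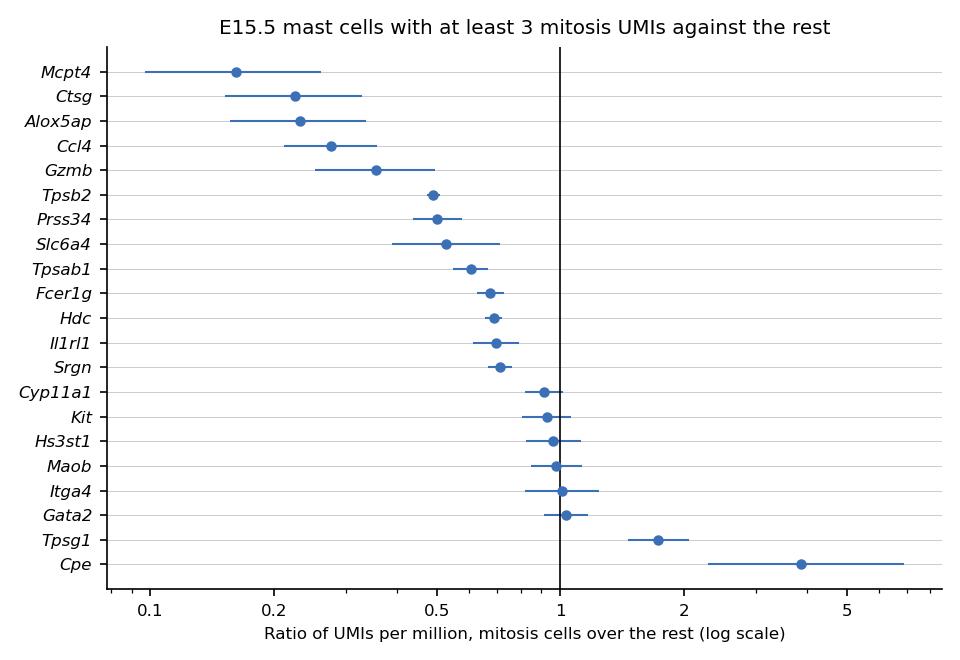
Points give the ratio of CPM in E15.5 mast cells with at least 3 mitosis UMIs over the remaining E15.5 mast cells (log axis) with 95% intervals for 21 genes; the line marks 1. Mcpt4 at 0.162 and Ctsg at 0.225 lie lowest among the genes named, Kit at 0.926 and Gata2 at 1.03 have intervals that include 1, and Cpe lies at 3.87. Mcpt4 was found in 7.5% of the mitosis cells and 9.04% of the rest.

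Single E15.5 mast cells differed most in a small set of genes. Over 292 cells thinned to 3000 UMIs, the median variance over mean was 1.05 for 3482 genes, against 37.8 for Ifitm1, 19.1 for Tpsb2, 16.1 for Mcpt2, 15.8 for Ccl4, 12.5 for Ccl3 and 11.9 for Mcpt8. Ifitm1 was found in 17 of these cells, up to 61 UMIs. Globin genes (Hbb-y, Hba-x), cartilage collagens (Col2a1, Col11a1) and Lyz2 were also among the 15 most variable genes. At E17.5 Tpsb2 and Mcpt4 led over 35 cells, with 39.1 and 36.3, followed by Col1a2 at 35.7 and Col1a1 at 32.4. The gene most correlated with Kit over the 292 cells was Hdc, with a Pearson r of 0.271 that depth and 1 shared library bear on.

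Mcpt8, the basophil protease, was held by few cells. The 4 E15.5 cells with at least 10 Mcpt8 UMIs (75, 74, 15 and 12) carried 76.9% of all its UMIs in mast cells, along with 49.3% of Ccl3, 58.0% of Ccl4 and 47.9% of Ccl9. None of them had a UMI of Tpsb2 or Prss34, and Kit had 0, 1, 0 and 0 UMIs, while Hdc had 40, 41, 11 and 10 and Il1rl1 4, 5, 2 and 1. A pair of them had 206 and 126 Cpa3 with 93 and 85 Cma1 UMIs, and the other pair, the lowest of the rule, had 15 Cpa3 and no Cma1 with 53 and 66 Ifitm1 UMIs. These 4 cells go against the mast cell label. Without them and the 2 cells with at least 10 C1q UMIs, 1 in each library, none of 31 recomputed ratios between the stages turned direction. Those 31 did not include Mcpt8, Ccl3, Ccl4 or Ccl9, whose ratios without these cells were not computed. Of the other lists, eosinophil markers had 4 of 8 at 0 at E15.5, and Prg3 had 35 UMIs there, against 0 in other cells. Lymphocyte markers summed to 164 CPM in E15.5 mast cells, with 6 of 14 at 0, and to 231 CPM in E17.5 cells, with 8 of 13 at 0, beside 24.03 and 26.86 CPM in other cells. Most of this was Nkg7, a granule protein of cytotoxic lymphocytes, at 134 and 175 CPM, while Rora, Cd79b, Cd3g and Il7r had 31, 15, 9 and 8 UMIs at E15.5, and Cd3d, Cd3e and Cd79a 0, 1 and 1. Of 16 progenitor genes, a list that includes Kit, 3 were at 0 at E15.5 and 9 in E17.5 cells. At E15.5, 5 of 9 counted genes were higher than in other cells and 3 lower, and at E17.5 4 of 6 were higher and 1 lower. The list summed to 685 and 944 CPM in mast cells and 490 and 351 CPM in other cells. Among its genes, Flt3, Mpo and Elane had no UMI in mast cells of either library.

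At E17.5, cells with Mcpt4 often held Mrgprb1 and Mrgprb2. All 11 had Mrgprb2 against 11 of the other 24, and 9 had Mrgprb1 against 4 of 24. Mcpt4 UMIs in these 11 cells were 323, 208, 68, 68, 65, 59, 40, 20, 9, 1 and 1, of which suffixes 1, 2 and 3 held 1, 5 and 5 cells. They also held more Tpsb2 (42734 against 20707 CPM, a ratio of 2.06), Hdc (12055 against 7783 CPM, 1.55) and Tnf (349 against 54.5 CPM, 6.398). Kit was at 349 against 285 CPM, a ratio of 1.23 with an interval of 0.748 to 1.98. Their median depth was 7208 UMIs against 6036, and Fos was at 3290 against 1254 CPM, and the part of either in these differences was not tested. At E15.5, Mcpt4 was found in 29 cells. All of these had Tpsb2, against 302 of the other 319, and 2 had Mrgprb2, against 4 of the other 319. Gzmb was found in 31 E15.5 cells, of which 0 had Mcpt4, against 9.15% of the cells without Gzmb. With so low a share in the rest, 0 of 31 cells does not show that these genes exclude each other.

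**Figure D5:**
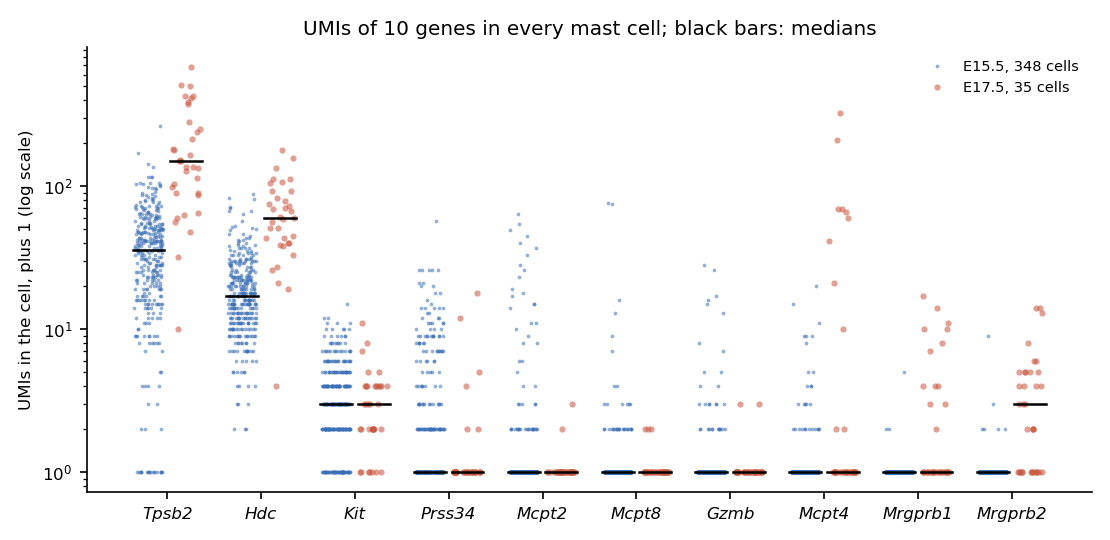
UMIs plus 1 (log y axis) of 10 genes (x axis) in every mast cell, with 1 point per cell (E15.5 in blue, E17.5 in red, spread sideways for display) and black bars at the medians. Tpsb2 and Hdc lie above 0 UMIs in nearly every cell, a few E15.5 cells hold Mcpt8 up to 75 UMIs, and 11, 13 and 22 of the 35 E17.5 cells hold Mcpt4, Mrgprb1 and Mrgprb2.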

How the data were processed

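The deposited matrices hold counts of UMIs per gene and barcode, made by the authors with Cell Ranger on mm10, and for E15.5 the matrix states version 3.1.0. The authors' metadata table supplied the mesenchymal labels, and its other values were not used. Members and gene lists were chosen with earlier results of these data known. Of genes outside the lists, those named had the largest folds, ratios between the stages, variation or correlation with Kit, and any other gene named was chosen after its values were seen. UMIs were summed over cells and scaled to CPM. Levels carry exact Poisson and shares exact Clopper-Pearson 95% intervals, ratios the exact conditional interval, all for counting error only, since UMIs of 1 library are no replicates. Doublets were scored per suffix with Scrublet (scanpy 1.11.5, expected rate 0.06, 30 components) and kept. Thinning drew 3000 UMIs per cell without replacement and left out 56 shallower E15.5 mast cells. Scripts ran on Python 3.11.15 with scipy 1.17.1 and were tested on simulated data. Of 190 barcodes shared by both matrices, 0 were mast cells.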

Additional observations from a re-analysis of the deposited data

Results flagged for a closer look

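At E15.5, 204 unlabelled barcodes with at least 10 UMIs of Cpa3 and Cma1 lay outside the limits on cells, whereas E17.5 had none. They had medians of 1945.5 UMIs and 805 genes, and 25% held at least 3 mitosis UMIs against 46.0% of the mast cells within the limits. Mcpt4 was at 160 CPM in them against 51.0 CPM, a ratio of 3.13 (2.39 to 4.10), Ctsg at 141 against 68.2 CPM and Gata2 at 287 against 499 CPM. Their median mitochondrial share was 4.85% against 3.22%, and RNA of other cells was higher in them, with Hbb-bs at 97227 against 4882 CPM, Hba-a1 at 46035 against 1858 CPM, C1qa at 39.6 against 2.26 CPM and Pf4 at 77.7 against 13.5 CPM, where Hbb and Hba were themselves among the limits. In the 84 barcodes outside by the number of genes alone, Mcpt4 was at 319 CPM and Tpsb2 at 14261 CPM, with a median mitochondrial share of 5.04%, Hbb-bs at 7570 CPM, Hba-a1 at 2786 CPM, C1qa at 0 UMIs and Pf4 at 13.02 CPM. The part of these in the differences was not tested.

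Of 183 listed genes counted in both libraries, 19 lay on opposite sides of the other kept cells at the 2 stages, with both intervals clear of 1, beside 5.08% of all 3973 genes counted in both, and the difference between the stages was not tested. Among the mitosis genes, the fold over other cells at E15.5 and E17.5 was 1.51 and 0.291 for Mki67, 1.46 and 0.152 for Top2a, 1.37 and 0 for Cenpf, 1.38 and 0.0876 for Cenpe, and 1.94 and 0.496 for Cenpa. It was 1.40 and 0.209 for Birc5, 1.66 and 0.259 for Ccnb1, 1.87 and 0.323 for Ube2c, 1.38 and 0.398 for Tpx2, and 1.79 and 0.129 for Nusap1. The other genes ran the opposite way, with folds of 0.251 and 1.99 for Fos, 0.615 and 3.34 for Fosb, 0.380 and 7.79 for Jun, 0.441 and 3.22 for Egr1, and 0.544 and 6.90 for Egr2. For Ier2 the folds were 0.815 and 8.41, for Dnajb1 0.746 and 3.98, for Dusp1 0.698 and 8.34, and for the chemokine gene Ccl7 0.601 and 2.595. For Ccl7 at E17.5, 3 cells held 33 UMIs and the remaining mast cells 4.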

How the results depend on the processing

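Of 535 alternative values for 61 folds over other cells, 401 stayed within the interval of the reported value, 124 lay outside it with the same direction and 10 turned. Of 279 for 31 ratios between the stages these numbers were 233, 45 and 1. Against macrophages alone, the turned folds at E15.5 were Fcer1g 0.821, Hpgds 0.344, Hes1 4.21, Ier2 1.09 and Top2a 0.931, and at E17.5 Fcer1g 0.968, Fos 0.986 and Ccl7 0.238. Against labelled cells alone, Ier2 was at 1.12 and Egr2 at 1.05 at E15.5. In E17.5 suffix 3 alone the ratio of Hs3st1 was 0.998. The share of mast cells at E15.5 was 3.47% with at least 1 Kit UMI required, 5.11% with no limit on genes and 3.59% (552 cells) with no limits, and at E17.5 0.261% in suffix 1 alone. Thinning to 3000 UMIs left 40 list genes at least 2-fold above other cells at E17.5, 20 higher at E17.5 than at E15.5 and 4 lower, and suffixes 2 and 3 alone left 6 and 8 lower. At least 10 mesenchyme UMIs were found in 20.3% of E15.5 mast cells without high doublet scores and 18.5% after thinning, and in 54.3% at E17.5 after thinning. Macrophage UMIs at E17.5 reached 10 in 0% without high doublet scores, and mitosis shares after thinning were 40.1% and 2.86%. Counts of list genes applied the minimum of 10 UMIs anew in each of these settings. Thinning lowers UMIs by its construction, and the cause of the other changes was not tested. The ratio of Mcpt4 ranged from 32.3 to 86.1. Settings without the limits on cells or genes, without the Mcpt8 and C1q cells and without the other cells rich in Cpa3 and Cma1 were chosen after seeing the data. No paired analysis was possible because each stage has 1 library. At E17.5, 35 cells gave 251131 UMIs, so 3 UMIs are worth 11.9 CPM there against 1.35 CPM at E15.5.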

Other observations

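Some genes outside the lists of known mast cell genes also stood apart in mast cells, and no test was run on them. Smpx, encoding a small muscle protein, was at 442 CPM in 80.2% of E15.5 mast cells and 569 CPM in 88.6% of E17.5 mast cells, against 1.07 and 0.199 CPM in other cells. Krt4, an epithelial keratin gene, had 38 UMIs in 48.6% of E17.5 mast cells (151 CPM) and was at 0.00828 CPM in other cells. Gcsam, a signalling adaptor of germinal center B cells, was at 239 CPM in 82.9% of E17.5 mast cells, and the zinc transporter gene Slc30a2 at 30.3 CPM in 16.95% of E15.5 mast cells. The chemokine gene Ccl17 was at 31.6 CPM at E15.5 against 0.0774 CPM in other cells. Mns1 was at 267 CPM at E15.5 and 79.6 CPM at E17.5, a ratio of 0.298 (0.181 to 0.465), while other cells held 12.44 and 11.96 CPM. Pla2g7, which inactivates platelet-activating factor, was at 9.03 and 143 CPM, with 4.80 and 6.19 CPM in other cells. The pseudogenes Gm10073, Rps12-ps3 and Gm9493 had ratios of 24.6, 20.3 and 14.9 in mast cells and of 38.1, 42.9 and 15.2 in other cells.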
